A study of Mus musculus with 7 samples.

Results

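RNA polymerase II (POLII) peaks that carried neither C-MYC nor SOX2 were examined in POLII replicate 2 of a ChIP-seq study of iMOP cells. A peak was counted as factor-free when it shared no base with any peak of C-MYC replicate 1, C-MYC replicate 2, SOX2 replicate 1 or SOX2 replicate 2. Of 31796 POLII peaks in replicate 2, 4811 (15.1%) were factor-free, and the other 26985, which shared at least 1 base with a C-MYC or SOX2 peak, are called factor-bound. The share depended on which peaks entered: of the 15898 peaks in the higher-scoring 50%, 284 (1.79%) were factor-free, and the same choice applied to POLII replicate 1 gave 41148 of 53528 peaks (76.9%). Because the members were chosen by measured values, the peak lists themselves, their count and their distance from the factors are descriptions and carry no test.

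iMOP cells (immortalized multipotent otic progenitors) are a mouse cell line made from progenitors of the embryonic cochlea with a c-Myc retrovirus, and all libraries therefore come from cells that carry this provirus. The cells were grown as floating otospheres in serum-free DMEM/F12 with B27 supplement and 20 ng/ml basic fibroblast growth factor. There was 1 cell type and no treatment contrast. Chromatin was precipitated with antibodies against RNA POLII (clone 4H8), C-MYC (N-262) and SOX2 (clone 6F1.2), with 2 samples described as biological replicates for each, and 6 peak lists were analysed. The sources used here do not tie a ChIP sample to a particular clone or culture, so the replicates may share their cells.

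POLII is the enzyme that transcribes protein-coding genes. It gathers at gene starts, where it often pauses, travels along gene bodies and slows again past gene ends, so a POLII peak can mark any of these places as well as transcribed enhancers. C-MYC is a transcription factor that binds mostly at active promoters with its partner MAX, and SOX2 is a factor of the high mobility group family that marks the prosensory progenitors of the inner ear and binds both promoters and enhancers. A POLII peak without either factor may therefore be a piece of a gene body or a separate site. The distances below describe the position of each peak relative to factor-bound peaks. No gene annotation of mm9, the build named in the submitters' processing notes, was used here, so no peak was placed at a gene start or end and the direction of transcription beside it was not known.

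The lists of POLII replicate 1 and replicate 2 held 53528 and 31796 peaks, those of C-MYC 42435 and 44146, and those of SOX2 39878 and 26637, 238420 in all. Tags counted inside peaks ranged from 1705241 in POLII replicate 1 to 4488517 in POLII replicate 2. The total depth of the libraries was not given in the sources used here. The POLII replicates shared few peaks: 5244 of the 31796 peaks of replicate 2 (16.5%) touched a peak of replicate 1, whereas 22526 (70.8%) touched C-MYC replicate 1 and 22008 (69.2%) touched SOX2 replicate 1. Where a share is given with a 95% Wilson interval, or a difference of shares with a 95% Newcombe interval, the interval covers counting error only, because peaks of 1 library are not replicates.

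Factor-free peaks were small. They were 15.1% of the peaks of POLII replicate 2 but covered 11.0% of its peak bases and held 243089 tags, 5.42% of the 4488517 tags in its peaks. Their length ran from 196 to 8577 bases with a median of 545 and quartiles of 395 and 840.5, against a median of 894 and quartiles of 591 and 1316 for factor-bound peaks. The number of tags in a peak, a raw count of reads, ran from 12 to 2637 with a median of 29 (quartiles 18 and 54), against 84 (quartiles 37 and 218). Fold enrichment, the deposited ratio of each peak over its background, had a median of 6.21 (quartiles 4.83 and 7.84, highest 24.4), against 8.33 (quartiles 6.34 and 11.2, highest 35.7).

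The curves for the 2 classes were shifted but overlapped over most of their range. There were 494 factor-free peaks with 100 or more tags (10.3%), against 12260 factor-bound peaks (45.4%), and a single factor-free peak exceeded 1000 tags. Many members lay near the limit of the list. The deposited score, 10 times the negative log10 of the p-value, started at 50, and 2323 members (48.3%) scored under 60, against 3134 factor-bound peaks (11.6%). Within a peak, the tags were less dense, at a median of 53.3 per kb against 87.4. A longer peak also has more bases on which to meet a factor peak, so length is in part set by the way the members were chosen.

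**Figure D1:**
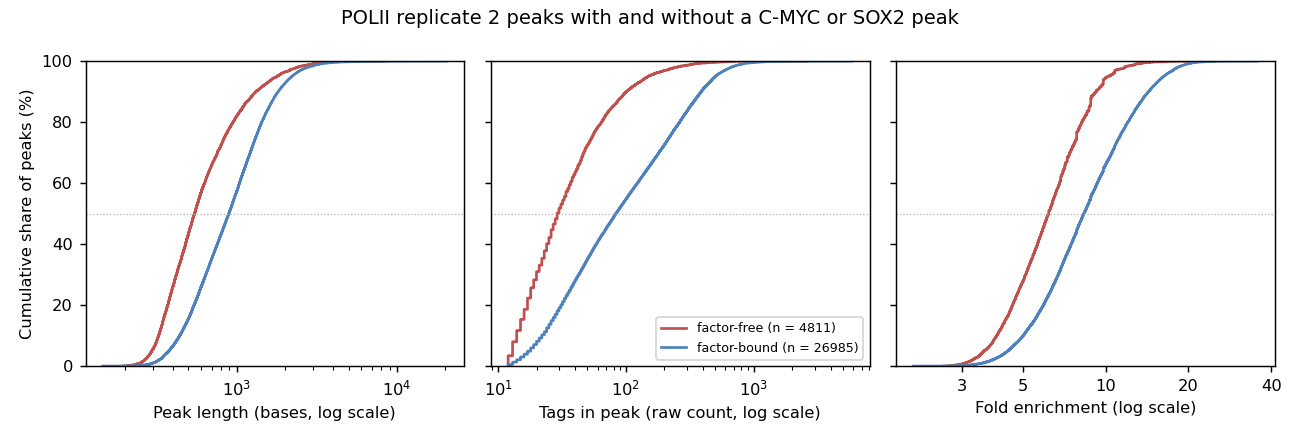
Cumulative share of POLII replicate 2 peaks (y axis, %) against length in bases, tags per peak and fold enrichment (x axes, log scale), for 4811 factor-free (red) and 26985 factor-bound peaks (blue). The red curves lie to the left over most of the range in all 3 panels, and the curves reach 50% at 545 against 894 bases, 29 against 84 tags and a fold of 6.21 against 8.33.

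The size of POLII peaks was graded by the number of factor lists on which they had a partner. The median number of tags was 29 with no factor list, 39 with 1, 40 with 2, 85 with 3 and 134 with all 4. The median length followed the same order, from 545 through 628, 639 and 889 to 1034 bases, and so did the median fold enrichment, from 6.21 through 6.57, 6.81 and 8.39 to 9.35. Factor-free peaks thus sat at the lower end of a series and were closest to the 3299 peaks found on 1 factor list. The 4811 members also included peaks that missed a factor peak narrowly. In 68 of them the closest factor peak was fewer than 100 bases away, with a median length of 617.5 bases, 45 tags and a fold of 6.345. On the other side of the limit, 17 factor-bound peaks shared fewer than 100 bases with their factor peak at most, and these had a median length of 518 bases, 28 tags and a fold of 6.79.

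Among the members themselves, long peaks had many tags and low enrichment. The 1257 members of up to 400 bases had a median of 15 tags and a fold of 7.84, the 1488 of 401 to 600 bases 25 tags and a fold of 6.6, and the 172 of over 2000 bases 242.5 tags and a fold of 3.605. Factor-bound peaks did not have this slope: their median fold was 8.54 up to 400 bases, 8.91 from 801 to 1200 bases and 7.2 over 2000 bases. Across the 4811 factor-free peaks the rank correlation of length and fold was -0.690 (Spearman, across peaks of 1 library that share its depth, given as a description), and across the factor-bound peaks it was 0.0109. Up to 400 bases, factor-free and factor-bound peaks had 15 against 16 tags at the median, both near the lowest count of 12. Their folds there, which rest on few tags, were 7.84 against 8.54. Above 1200 bases factor-free peaks had far fewer tags, at medians of 107 against 239 from 1201 to 2000 bases and 242.5 against 430 above. The share of all peaks of a length that was factor-free was 41.3% up to 400 bases, 22.1% from 401 to 600 and 6.33% from 1201 to 2000 bases.

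POLII replicate 1 was not used to choose the members. Its overlap with POLII replicate 2 (16.5%) was lower than that of any of the 4 factor lists (52.9% to 71.6%), and no value here checks the antibody label of a list, so what overlap between the POLII lists stands for is uncertain. Of the 4811 factor-free peaks, 458 (9.52%, 95% interval 8.72 to 10.4) shared at least 1 base with a peak of POLII replicate 1, against 16.5% of all peaks of POLII replicate 2. Among factor-bound peaks the number was 4786 of 26985 (17.7%, 17.3 to 18.2). The difference, factor-free minus factor-bound, was -8.22 percentage points (-9.14 to -7.24). It had the same sign on all 20 chromosomes that held members, where the factor-free share ran from 1.06% on X to 12.6% on chromosome 3 and the factor-bound share from 5.90% on X to 21.1% on chromosome 8.

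This difference depended on SOX2 replicate 1. When that list was left out of the choice of members, 14.7% of factor-free peaks were in POLII replicate 1 and the difference was -2.22 points (-3.17 to -1.24). The peaks that had SOX2 replicate 1 as their only factor list, 1905 in number, were in POLII replicate 1 at 27.9% (26.0 to 30.0), whereas those with SOX2 replicate 2 only (744) were there at 11.4%, those with C-MYC replicate 1 only (283) at 10.6% and those with C-MYC replicate 2 only (367) at 10.4%. Against the 2246 peaks with C-MYC and no SOX2, of which 7.48% were in POLII replicate 1, factor-free peaks were higher by 2.04 points (0.631 to 3.37). Against the 3246 peaks with SOX2 and no C-MYC (27.1%) they were lower, at -17.6 points (-19.3 to -15.8), and against the 21493 peaks with both factors (17.4%) the difference was -7.88 points (-8.82 to -6.88). Among the 4 classes of peaks with a single factor list, the 9.52% of the factor-free peaks lay inside the intervals for C-MYC replicate 1 (7.53 to 14.7), C-MYC replicate 2 (7.64 to 13.9) and SOX2 replicate 2 (9.33 to 13.9), and outside that for SOX2 replicate 1.

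The overlap with POLII replicate 1 also varied with the length of the peak. Of the members of up to 400 bases, 146 (11.6%, 9.96 to 13.5) were in POLII replicate 1. The share was 10.6% from 401 to 600 bases, 10.5% from 601 to 800, 6.48% from 801 to 1200 and 5.61% from 1201 to 2000. Over 2000 bases it was 2.91%, or 5 of 172 (1.25 to 6.62). A longer peak has more bases on which to meet a peak of the other list. The share was lowest among the longest members, which also had the lowest median fold, 3.605. Why the share differed with length was not tested. Factor-bound peaks did not follow this order, with 20.1% up to 400 bases, 13.0% from 601 to 800 and 19.5% over 2000 bases. The gap between the classes was therefore widest among long peaks, at -16.6 points both from 1201 to 2000 bases (-18.6 to -13.8) and over 2000 bases (-19.0 to -12.5), and narrowest from 601 to 800 bases, at -2.50 points with an interval that included 0 (-4.74 to 0.0918). Weighted over length classes, the difference was -7.66 points (-8.65 to -6.58). Length classes did not match enrichment: the median fold was 4.23 against 9.33 from 1201 to 2000 bases and 3.605 against 7.2 above. By fold, the factor-free and factor-bound shares were 5.47% and 12.0% up to 4, and 8.11% and 12.0% from 4 to 6. They were 10.6% and 14.2% from 6 to 8, and 13.3% and 17.0% from 8 to 10. At a fold of 10 to 15 they were 8.91% and 23.2%, and over 15 they were 7.14% (14 members) and 28.2%.

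**Figure D2:**
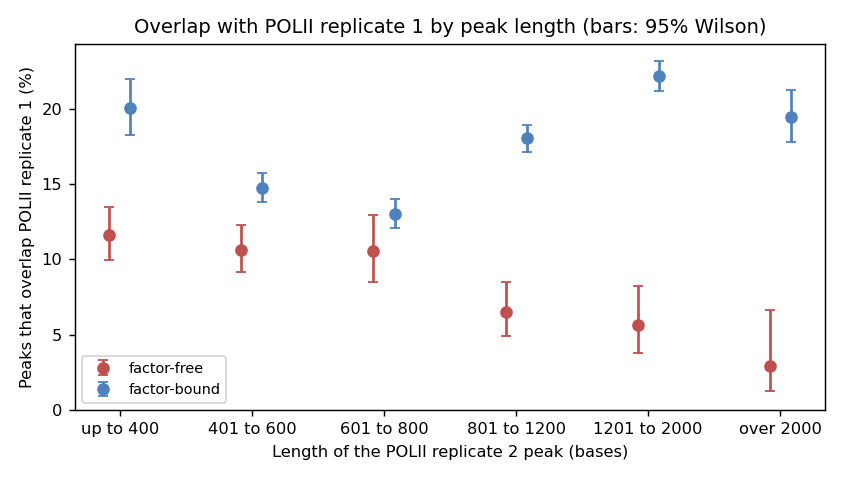
Share of POLII replicate 2 peaks that overlap a peak of POLII replicate 1 (y axis, %) by peak length in bases (x axis), for factor-free (red) and factor-bound peaks (blue), with 95% Wilson intervals as bars. The factor-free share is 11.6% up to 400 bases and 2.91% over 2000 bases, and it lies below the factor-bound share in each of the 6 classes.

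The 458 members found in both POLII lists met 459 peaks of replicate 1. These replicate 1 peaks had a median of 25 tags, a length of 592 bases and a fold of 7.75. Their summits, the positions of highest signal, lay close to those of the members: the median distance between summits was 55 bases, and 304 of 459 pairs (66.2%) were within 100 bases. For factor-bound peaks the median was 172 bases and 37.3% of pairs were within 100 bases, over longer peaks. Of the 459 replicate 1 peaks, 9 touched a C-MYC or SOX2 peak themselves. Members in both lists were slightly shorter than the rest, with a median of 492 against 554 bases, 25 against 30 tags and a fold of 6.795 against 6.13. Among factor-bound peaks the order of length and tags was the opposite, those found in both lists being longer (1025 against 869 bases) and richer in tags (134 against 79). The order of fold was the same as among members, at 9.66 against 8.09.

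In the full list, factor-free peaks lay about as far from the nearest factor-bound POLII peak as factor-bound peaks lay from each other, but this depended on which peaks entered. The number of bases between a factor-free peak and the nearest factor-bound one had a median of 14322 (quartiles 7110 and 29367, range 9 to 1686116). Between a factor-bound peak and the nearest other factor-bound peak it was 15046 (quartiles 6785 and 33713), so the medians differed by -724 bases. In the higher-scoring 50% of the list the difference was -12104 bases. The 284 members kept there had a median of 14342 bases to the factor-bound peaks kept with them. They thus lay nearer to those peaks than those peaks lay to each other. Both sets differ from those of the full list, and why the difference changed was not tested. With POLII replicate 1 in place of replicate 2 the difference was 10290 bases, so that members were farther. Measured from summit to summit, the median of the members was 15421 bases.

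Within 1 kb of a factor-bound peak there were 150 members (3.12%, 2.66 to 3.65), and within 5 kb there were 738 (15.3%, 14.3 to 16.4), against 17.0% of factor-bound peaks within 5 kb of another. Within 10 kb the shares were 36.7% and 36.9%. Farther out, 588 members lay more than 50 kb away, and 195 (4.05%) more than 100 kb, against 6.21% of factor-bound peaks. In the 50 kb to either side, 12.5% of members and 16.1% of factor-bound peaks had no factor-bound neighbour, and 48.9% and 46.3% had one on both sides, with a median of 2 neighbours for each class.

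**Figure D3:**
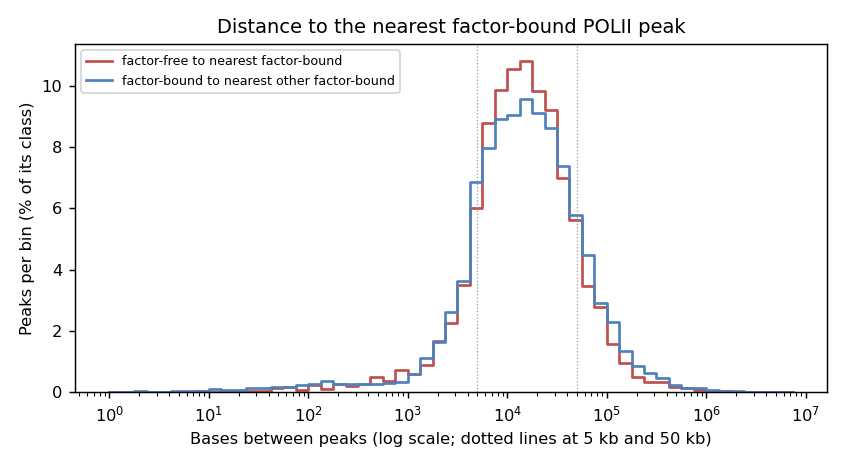
Share of peaks (y axis, % of each class per bin) by the number of bases to the nearest factor-bound POLII peak of replicate 2 (x axis, log scale), for factor-free peaks (red) and for factor-bound peaks to the nearest other factor-bound peak (blue). The 2 curves overlap over most of their range, with medians of 14322 and 15046 bases, and 15.3% of factor-free peaks lie at or below the dotted line at 5 kb.

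What the members looked like did vary with distance. The 150 members within 1 kb of a factor-bound peak had a median of 54 tags (quartiles 32.25 and 106.75), a length of 628.5 bases and a fold of 5.895. The 2456 members at 10 to 50 kb had 28 tags (quartiles 18 and 48), 531 bases and a fold of 6.21. The 195 members over 100 kb away had 15 tags (quartiles 13 and 19), 368 bases and a fold of 8.15. Members near a factor-bound peak were thus longer, richer in tags and lower in fold than remote ones. The remote members lay near the lowest count of 12 tags, so their fold rests on few tags. Factor-bound peaks changed in the same sense, from 88 tags and a fold of 6.38 within 1 kb to 37 tags and a fold of 9.9 over 100 kb. Across the 4811 members the rank correlation of distance was -0.371 with tags and 0.262 with fold (Spearman, a description across peaks of 1 library), and across factor-bound peaks it was -0.146 and 0.237.

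The share of members in POLII replicate 1 was 8.67% within 1 kb, 8.16% at 1 to 5 kb, 8.65% at 5 to 10 kb, 9.32% at 10 to 50 kb, 12.0% at 50 to 100 kb and 16.4% (11.9 to 22.2) over 100 kb. It was thus highest among the members that lay farthest from factor-bound POLII peaks and that had the fewest tags. The factor-bound share also differed along the same classes, from 11.4% within 1 kb to 23.9% over 100 kb.

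**Figure D4:**
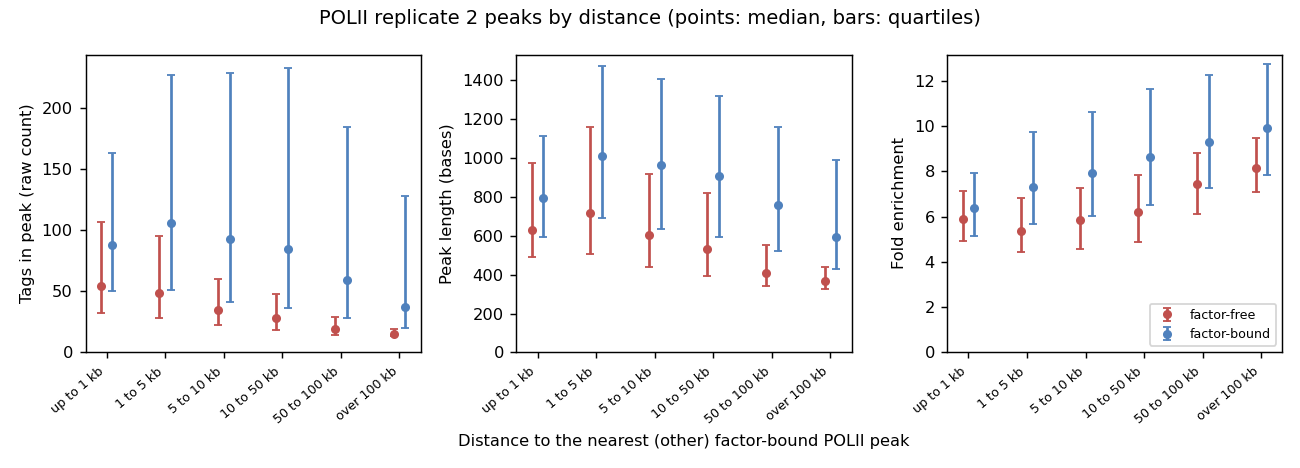
Median tags per peak, peak length in bases and fold enrichment (y axes), with quartiles as bars, by distance to the nearest (other) factor-bound POLII peak (x axis), for factor-free (red) and factor-bound peaks (blue). The factor-free median is 54 tags up to 1 kb and 15 tags over 100 kb, while the factor-free fold is 5.895 in the nearest and 8.15 in the farthest class.

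The factor-bound peak next to a member was usually larger than the member, but less so at close range. Within 1 kb of each other, the neighbour had a median of 69.5 tags and the member held 79.8% of its neighbour's tags at the median. At 1 to 5 kb these values were 76.5 tags and 70.3%. At 5 to 10 kb the neighbour had 146 tags and the member held 30.3%, and at 10 to 50 kb 142.5 tags and 25.6%. The closest pairs were thus the most alike in size, and their neighbours were smaller than those at 5 to 50 kb. Over all members, the nearest factor-bound peak had a median of 121 tags (4045 distinct peaks), against 86 tags for the peak nearest to a factor-bound peak. The tags of a member and of its neighbour had a rank correlation of 0.237 (Spearman, 4811 pairs that share neighbours and library, a description).

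The position of the summit within a member showed no clear side. Whether the highest signal of a member faced the nearest factor-bound peak or lay away from it was counted from the coordinates. The summit lay in the part of the peak facing the nearest factor-bound peak in 2415 of 4811 members (50.2%, 48.8 to 51.6), and in 910 of the 1767 members within 10 kb (51.5%, 49.2 to 53.8). None of the 1257 members of up to 400 bases had its summit in either outer 20% of its length. The pooled share therefore says little about the side that such short peaks face. Among the 101 members of over 2000 bases within 10 kb, the summit lay in the facing part in 51 (50.5%). Of the 172 members over 2000 bases, 30 had the summit in the 20% of their length nearest the neighbour and 23 in the 20% farthest from it. The factor-bound share facing the nearest other factor-bound peak was 50.4% (49.8 to 51.0).

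By the way the members were chosen, no C-MYC or SOX2 peak touched one, but some lay near. These distances were not compared with those of other positions. The nearest factor peak of any of the 4 lists, whether or not it lay on a POLII peak, was at a median of 6907 bases, with 511 members (10.6%) within 1 kb and 1843 (38.3%) within 5 kb. By list, the median distance was 11125 and 10777 bases to C-MYC replicates 1 and 2, and 10802 and 17005 bases to SOX2 replicates 1 and 2. The list of SOX2 replicate 2 is the shortest, at 26637 peaks. The nearest factor peak came from SOX2 replicate 1 for 1785 members (37.1%), from C-MYC replicate 2 for 1327 (27.6%), from C-MYC replicate 1 for 874 and from SOX2 replicate 2 for 825. Peaks of POLII replicate 1 lay at a median of 14295 bases from the members, overlaps counted as 0, against 9580 bases from factor-bound peaks, and 1205 of the 4811 members were within 5 kb of one.

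Most factor-free peaks had no other member close by, but they lay nearer to each other than factor-bound peaks lay to them. The median distance from a member to the nearest other member was 69028 bases, against 97807 bases from a factor-bound peak to the nearest member, and 6.76% of members but 2.89% of factor-bound peaks had a member within 5 kb. In all, 4486 members had no other within 5 kb. The remaining 325 formed 158 chains with gaps under 5 kb, of which 150 held 2 peaks, 7 held 3 and 1 held 4. The chain of 4 lay at chr10:39558137-39565431 (mm9) and spanned 7295 bases. Its peaks had 14, 21, 20 and 19 tags, and folds of 9.29, 7.09, 5.96 and 6.56 in coordinate order. The nearest factor-bound peak, 4427 bases to the side of higher coordinates, had 33 tags over 524 bases and a fold of 4.45. That peak and the next one, with 34 tags, each overlapped SOX2 replicate 1 only.

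**Figure D5:**
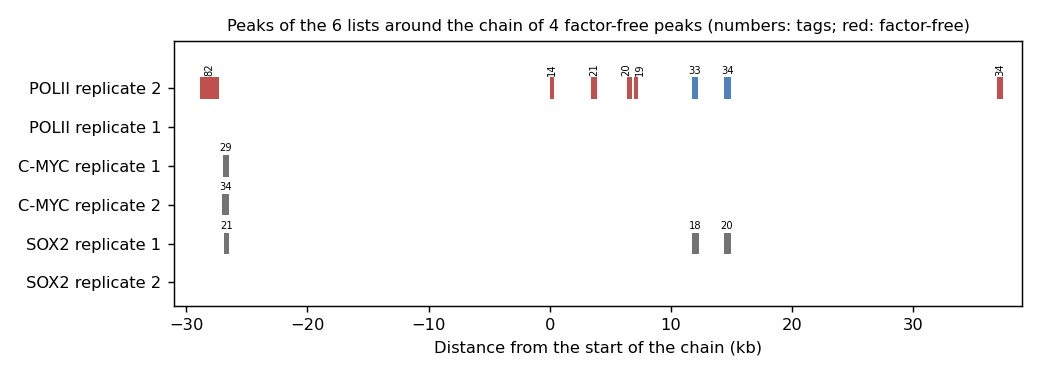
Peaks of the 6 lists (rows) around the chain of 4 factor-free peaks on chromosome 10, against distance from the start of the chain in kb (x axis), with the tags of each peak printed above it. The chain (red, 14 to 21 tags) is followed by 2 factor-bound POLII peaks (blue, 33 and 34 tags) that overlap SOX2 replicate 1 (grey). The nearest C-MYC peaks are at the left of the map beside a factor-free peak of 82 tags, and POLII replicate 1 and SOX2 replicate 2 have no peak in the window.

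A factor-free peak of 82 tags lay on the other side of this chain, about as far as the map reaches, with C-MYC and SOX2 peaks beside it that did not touch it. Of the chains of 3, that at chr1:45872121-45882050 (mm9) had peaks of 42, 45 and 58 tags, with folds of 5.29, 4.1 and 6.86, and its nearest factor-bound peak was 19270 bases away with 276 tags and a fold of 19.1. A chain of 3 on chromosome 18 spanned 10875 bases with 92, 60 and 29 tags, and its nearest factor-bound peak, 9821 bases away, had 32 tags. This last chain and the chain on chromosome 10 lay beside factor-bound peaks that were small, while the chain on chromosome 1 lay beside a large one. None of the 10 peaks of these chains overlapped POLII replicate 1.

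The members with the most tags were long and weakly enriched. The largest, at chr6:145835828-145844404 (mm9), had 2637 tags over 8577 bases, a fold of 2.81 and a factor-bound neighbour of 1184 tags at 38204 bases. It belonged to a tag-rich distal stretch of chromosome 6 in which 25 of 183 POLII peaks were factor-free and held 2.49% of all tags of factor-free peaks. The next, at chr2:30571799-30577020, had 984 tags over 5222 bases and a fold of 4.24, and it was larger than its factor-bound neighbour of 241 tags at 3624 bases. The peak at chr9:44218108-44221671 had 788 tags, a fold of 3.56 and a neighbour of 635 tags at 1811 bases. The peak at chr7:3657417-3661306 had 707 tags, a fold of 4.52 and a neighbour of 661 tags and a fold of 11.7 at 803 bases, and that neighbour overlapped all 4 factor lists. The peak at chr2:144072867-144076812 had 708 tags, a fold of 2.95, a neighbour of 633 tags and a fold of 12.5 at 18972 bases, and C-MYC peaks at 8294 and 8300 bases. These 5 peaks were chosen for their tags, so that they exceeded their nearest factor-bound neighbours in tags is no separate result. Their fold was lower than the neighbour's in 4 of 5 cases, the exception being the peak of 984 tags, with a fold of 4.24 beside 4.14.

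None of these 5 peaks overlapped POLII replicate 1. The longest members, after the peak on chromosome 6, were chr17:29836237-29842257, with 6021 bases, 622 tags and a fold of 3.04, and chrX:71018790-71024247, with 5458 bases, 512 tags and a fold of 3.29. They lay 4519 and 7164 bases from a factor-bound peak, and neither overlapped POLII replicate 1.

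The 5 members with the highest enrichment were mostly far from factor-bound peaks. Their lengths ran from 337 to 727 bases, on both sides of the member median of 545. The peak at chr10:78472470-78473022 had 43 tags over 553 bases and a fold of 24.4, with the nearest factor-bound peak at 86916 bases. The peak at chrX:18744046-18744640 had 64 tags and a fold of 23.6, and its nearest factor-bound peak was 736891 bases away. The peak at chrX:101543429-101543765 had 22 tags and a fold of 19.0, at 64611 bases. A peak of 493 bases on chromosome 18 had 34 tags and a fold of 17.6, at 37299 bases. Only the peak at chr9:78336490-78337216, with 76 tags and a fold of 17.0, lay close to a factor-bound peak, which had 1056 tags at 6073 bases. None of these 5 was found in POLII replicate 1 either, and the 14 members with a fold over 15 included 1 that was (7.14%, 1.27 to 31.5).

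Of the 458 members found in both POLII lists, the most enriched was chr7:35597323-35597926, with 69 tags and a fold of 16.5 in replicate 2. In replicate 1 it met a peak of 113 tags over 1789 bases with a fold of 3.42. The peak at chr10:6225400-6226006 had 71 tags and a fold of 14.5 in replicate 2, and 16 tags and a fold of 7.03 in replicate 1. The peak at chr3:158612563-158612902 had 17 tags in each replicate, with folds of 13.7 and 14.9. The tags and folds of the 2 lists are not on a common scale and are given side by side only. The peak at chr10:125494552-125494935 had 20 and 14 tags with folds of 13.6 and 8.07, and the peak at chr6:50146801-50147023 had 27 and 15 tags with folds of 13.5 and 13.2. All 5 lay at least 11899 bases from a factor-bound POLII peak of replicate 2. The nearest C-MYC or SOX2 peak of any list was closer in each case. In the order named, it lay at 3845, 7181, 11060, 13269 and 26665 bases.

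The most remote members were mostly small. The peak at chr1:27635669-27635961 had 12 tags, the lowest number seen among the members, and lay 1686116 bases from a factor-bound POLII peak. The peak at chr12:115848622-115848925 had 13 tags and lay 1003424 bases away, but had a peak of POLII replicate 1 at 1420 bases. The peak at chr5:50449889-50450703 was larger, with 58 tags and a fold of 6.34, and although it lay 986358 bases from a factor-bound POLII peak it had C-MYC peaks at 7312 and 7317 bases, a SOX2 peak at 7314 bases and a POLII replicate 1 peak at 156 bases. Remoteness from factor-bound POLII peaks was thus not always remoteness from the factors.

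Members were spread over the genome. They made up from 12.4% of the POLII replicate 2 peaks on chromosome 7 to 18.1% on chromosome 3 among 20 chromosomes. The median number of tags of the members ran from 25 on chromosome 14 to 39 on chromosome 11, where factor-bound peaks also had their highest median, 118. The median fold of the members was highest on X, at 7.25, as was that of factor-bound peaks, at 10.8.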

How the data were processed

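Peak lists of 6 ChIP-seq samples (2 each of POLII, C-MYC and SOX2) were read as deposited. The authors had called peaks separately for each replicate, and the submitters' processing notes name mm9. The aligner, the peak caller with its filters and the control behind each fold were not given in the sources used here. Each deposited line held positions, a raw count of tags, a score of 10 × −log10 of the p-value (highest p 1e-05) and a fold enrichment, a ratio. An input DNA sample is not analysed here. No authors' normalization makes the tag counts of separate lists comparable, so tags were compared within POLII replicate 2, and values of replicate 1 are set beside them as deposited.

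Overlap meant at least 1 shared base, and distance the number of bases between peaks. Python 3.11.15, numpy 2.4.6, pandas 2.3.3, scipy 1.17.1 and matplotlib 3.10.9 were used. Overlap counts were checked against bedtools 2.31.1, and the interval code was tested on simulated data. Named peaks were the 5 with the most tags, the 5 with the highest fold, the 3 longest, the 5 with the highest fold among those in both POLII lists, the 3 farthest from a factor-bound peak, and the 3 chains with most peaks, ties going to the widest span (7 chains held 3 peaks). The members, classes and named peaks were chosen with earlier results of these data known. The planned gene annotation was not made, since no annotation of mm9 was used here. No p-value is given.

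Alternatives changed how an overlap was counted, which peaks entered, which factor replicates were used and which POLII replicate was taken.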

Additional observations from a re-analysis of the deposited data

How the results depend on the processing

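For most results the only yardstick was the SD of the same value in the 2 POLII replicates. It was often wide, for example 30627 bases for the median distance, so a value that moved by less is no sign of stability. For the median length it was only 2.12 bases, from values of 542 and 545, so small shifts in length exceeded it. The number of factor-free peaks was 284 in the higher-scoring 50% of the POLII peaks and 9142 when a factor needed a peak in both its replicates. Applying the choice to POLII replicate 1 gave 41148 factor-free peaks, with 1.19% in the other POLII replicate, a median distance to a factor-bound peak of 57635 bases, 4.35% within 5 kb, 17.6% with another factor-free peak within 5 kb, a distance difference of 10290 bases, and medians of 542 bases, 21 tags and a fold of 7.65. In the higher-scoring 50%, the distance difference was -12104 bases and the medians were 872.5 bases, 91 tags and a fold of 7.645. With all lists cut to equal size by score, the medians were 655 bases and 41 tags. The median length was 560 when a factor peak had to cover the summit, 536 with no factor peak within 1 kb, 589 with both replicates of a factor, and 541 to 585 when 1 factor replicate was left out at a time.

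The difference in overlap with POLII replicate 1 changed sign, to 2.04 points, against peaks with C-MYC and no SOX2, a comparison added after seeing the data together with those against SOX2 alone and both factors. It was -13.9 in the higher-scoring 50%, -4.64 with equal list sizes, -3.83 with both replicates of a factor and -37.4 for POLII replicate 1. Its sign held in these and in the alternatives that left out a factor replicate. The distance difference also changed sign, to 375 bases with no factor peak within 1 kb and to the 10290 bases given above for POLII replicate 1. The causes were not tested. No paired analysis was possible because the classes compared are peaks of 1 POLII list, and the numbered replicates of C-MYC and SOX2 enter only through the choice of members.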
